A study of Mus musculus with 15 samples.

Results

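The genes followed here act in the oxidative and metal stress response of the mouse: Ptgr1, the metallothioneins Mt1 and Mt2, and the NRF2 targets Hmox1, Nqo1, Gclc, Gclm, Txnrd1, Srxn1 and Slc7a11. They were picked by gene symbol, and each symbol matched 1 row in each of the 3 deposited tables, giving 10 of 56953 genes. The genes were named with earlier results of these data known, so their values in both comparisons are given as descriptions and no test is read from them. RNA was sequenced from wild-type mice of strain 129, labelled as 10-week-old males. The labels give 10 animals, and the libraries used here carry 9 mouse numbers. Muscle stem cells (MuSCs, or satellite cells), from which injured muscle fibres are rebuilt, were taken by biopsy from mice 5, 6 and 11 before autologous MuSC transplantation (3 libraries). The same mice gave MuSCs after it, from an area that had received no cells (3 libraries). Quadriceps femoris muscle came from 6 transplanted mice (4, 5, 6, 11, 14 and 94) and from 3 sham-operated mice (3, 12 and 192). All groups are wild type, and the treatment entry of the shams names transplantation too, so groups were taken from the sample titles. The sources used here do not state how long after surgery samples were taken.

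NRF2, encoded by Nfe2l2, is a transcription factor that KEAP1 normally marks for degradation. Oxidants and electrophiles block KEAP1, and NRF2 then binds antioxidant response elements of genes for glutathione synthesis, thiol repair, quinone reduction and heme breakdown. BACH1 is a heme-sensitive repressor of many of the same genes. Metallothioneins are small cysteine-rich proteins that bind zinc and copper. Their genes are switched on mainly by the zinc sensor MTF1 through metal response elements, and also by glucocorticoids, cytokines and oxidants. In satellite cells glutathione, thioredoxin and metallothionein pathways are known to take part in the redox balance of activation and growth.

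Promoters of some of the genes are shown here, each for the reason given with it. They are the 250 bases before the start site, 5′ to 3′ on the gene's strand, from the RefSeq table of build GRCm38.p6. The table held 8 of the 10 genes. Capitals mark every match, on either strand, to the core of the antioxidant response element (TGACNNNGC) or of the metal response element (TGCACNC or TGCGCNC). The Mt2 and Mt1 promoters are shown because these neighbouring genes, whose starts lie 6471 bases apart on the same strand, showed like patterns in muscle. They stand at chr8:94172368-94172617 and chr8:94178839-94179088, both on the + strand.
Mt2: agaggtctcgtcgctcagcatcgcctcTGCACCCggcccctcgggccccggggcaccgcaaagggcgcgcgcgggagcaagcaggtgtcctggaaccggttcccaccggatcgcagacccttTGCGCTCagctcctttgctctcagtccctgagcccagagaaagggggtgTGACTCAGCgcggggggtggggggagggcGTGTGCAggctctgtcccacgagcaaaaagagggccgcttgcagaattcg
Mt1: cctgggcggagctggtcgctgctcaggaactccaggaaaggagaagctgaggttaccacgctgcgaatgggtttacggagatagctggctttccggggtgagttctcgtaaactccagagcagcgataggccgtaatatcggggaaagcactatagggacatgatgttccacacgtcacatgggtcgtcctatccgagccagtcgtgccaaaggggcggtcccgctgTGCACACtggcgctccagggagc
The Mt2 stretch held 3 matches to the metal response element and 1 to the antioxidant response element (TGACTCAGC), which also contains the AP-1 site TGACTCA. Mt1 held 1 match to the metal response element (TGCACAC). Of 32851 start sites in the table, 21.4% held at least 1 metal response element match in the same window and 1.26% held 3 or more.
The Ptgr1 promoter (chr4:58987079-58987328, - strand) is shown because Ptgr1 differed most between MuSCs after and before transplantation, and that of Gclm (chr3:122245307-122245556, + strand) because it is a known NRF2 target with a match.
Ptgr1: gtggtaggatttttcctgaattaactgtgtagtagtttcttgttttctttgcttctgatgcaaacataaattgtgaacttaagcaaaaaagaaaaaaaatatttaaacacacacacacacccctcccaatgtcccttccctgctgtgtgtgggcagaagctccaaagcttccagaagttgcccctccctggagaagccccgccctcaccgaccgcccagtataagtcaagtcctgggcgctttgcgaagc
Gclm: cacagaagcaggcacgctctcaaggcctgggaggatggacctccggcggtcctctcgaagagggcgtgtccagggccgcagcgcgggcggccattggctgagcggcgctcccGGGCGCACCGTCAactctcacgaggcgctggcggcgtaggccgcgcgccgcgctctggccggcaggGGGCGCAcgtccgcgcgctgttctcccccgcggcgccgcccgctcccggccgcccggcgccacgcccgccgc
The Ptgr1 window held no match to either core. In Gclm the antioxidant response element match (TGACGGTGC on the opposite strand) overlapped 1 of 2 metal response element matches, so the capitals run together there. Among the other genes in the table, Txnrd1 held an antioxidant response element match (TGACAAAGC) at 1 of its 3 start sites, Srxn1 held 1 metal response element match, and Nqo1 and Slc7a11 held none. The Srxn1 window also held TGAGTCA, the AP-1 site on the opposite strand, at 2 places, and the core searched matched at neither. The antioxidant response element core was in 10.2% of all start sites. A match describes these letters alone. The counts say nothing about elements outside these 250 bases, on either side, or about elements spelled otherwise than the cores.

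Estimated counts summed to 17.09 M to 22.98 M per library. The MuSC columns carry names in 2 styles, which divide the libraries into set A (before 5, before 11 and after 5) and set B (before 6, after 6 and after 11). Of the 13512 genes tested, 56.8% did not overlap in CPM between the sets. The sources used here do not state what the sets are. After 11 also had the lowest share of mitochondrial counts, 1.2% against 4.44 to 6.28% in the other MuSC libraries. Muscle came in 2 tables, 1 with 2 shams (3 and 192) and transplanted 4, 14 and 94, and 1 with sham 12 and transplanted 5, 6 and 11. Against the label of male, Xist was at 30.4 CPM or more in 14 libraries and at 0.0931 CPM in transplanted 4, while 4 Y-linked genes summed to at most 1.18 CPM. The 7 MuSC markers, Pax7 among them, were all detected in the MuSC libraries and summed to 1355 to 3448 CPM, against 105 to 142 CPM in muscle. Mature myofibre markers were present in the MuSC libraries too, at 463 CPM in after 11 and 1949 to 6057 CPM in the others. Fibroadipogenic progenitor markers summed to 134 to 203 CPM in MuSC libraries, against 143 to 332 CPM in muscle. Of these markers Dpp4 was at 0 in every MuSC library, and Dpt in those after. Neutrophil, endothelial and adipocyte markers summed to at most 0.125, 5.84 and 14.7 CPM in MuSC libraries.

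Ptgr1 encodes prostaglandin reductase 1, an enzyme that reduces oxidized prostaglandins and reactive aldehydes and oxidizes leukotriene B4, and is itself an NRF2-responsive gene. In MuSCs before transplantation it stood at 42.8 CPM (counts scaled to a common library total) in mouse 5, 64.5 CPM in mouse 6 and 40.0 CPM in mouse 11. After transplantation the same mice gave 91.6, 198 and 144 CPM. All 3 libraries after lay above all 3 before, and the rise was 2.14-fold in mouse 5, 3.07-fold in mouse 6 and 3.59-fold in mouse 11. The means were 144 ± 53.3 CPM after and 49.1 ± 13.4 CPM before (SD, n = 3 each), a log2 difference of 1.56 ± 0.37 (SE).

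Levels of Ptgr1 also differed between the library sets, though with overlap (40.0 to 91.6 CPM in A, 64.5 to 198 CPM in B). The 3.59-fold rise of mouse 11 crosses the sets, since before 11 is in A and after 11 in B. Both libraries of mouse 5 are in A and both of mouse 6 in B. The difference was therefore also taken within the sets. In set A, after 5 (91.6 CPM) stood above before 5 and before 11, with a log2 difference of 1.16. In set B, after 6 and after 11 stood above before 6, with a log2 difference of 1.40. With the set as a term the value was 1.28, and leaving out any 1 library gave 1.26 to 1.81, with 1.56 when after 11 was left out. On the TPM scale, which also divides by transcript length, the groups were tighter, at 28.8, 29.5 and 26.1 TPM before and 62.5, 88.2 and 62.1 TPM after in mice 5, 6 and 11. Of the 10 genes, Ptgr1 was the 1 whose groups did not overlap in CPM, where 6.33% of all 13512 genes tested did not (3.35% higher after and 2.98% lower). The fit by edgeR's quasi-likelihood test called 0 genes of all 13512 (0%) at an adjusted p under 0.05, so 0 of the 10 were called. Of all genes 305 (2.26%) were at an unadjusted p under 0.05, and DESeq2 called 16 (0.118%), none of the 10.

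**Figure D1:**
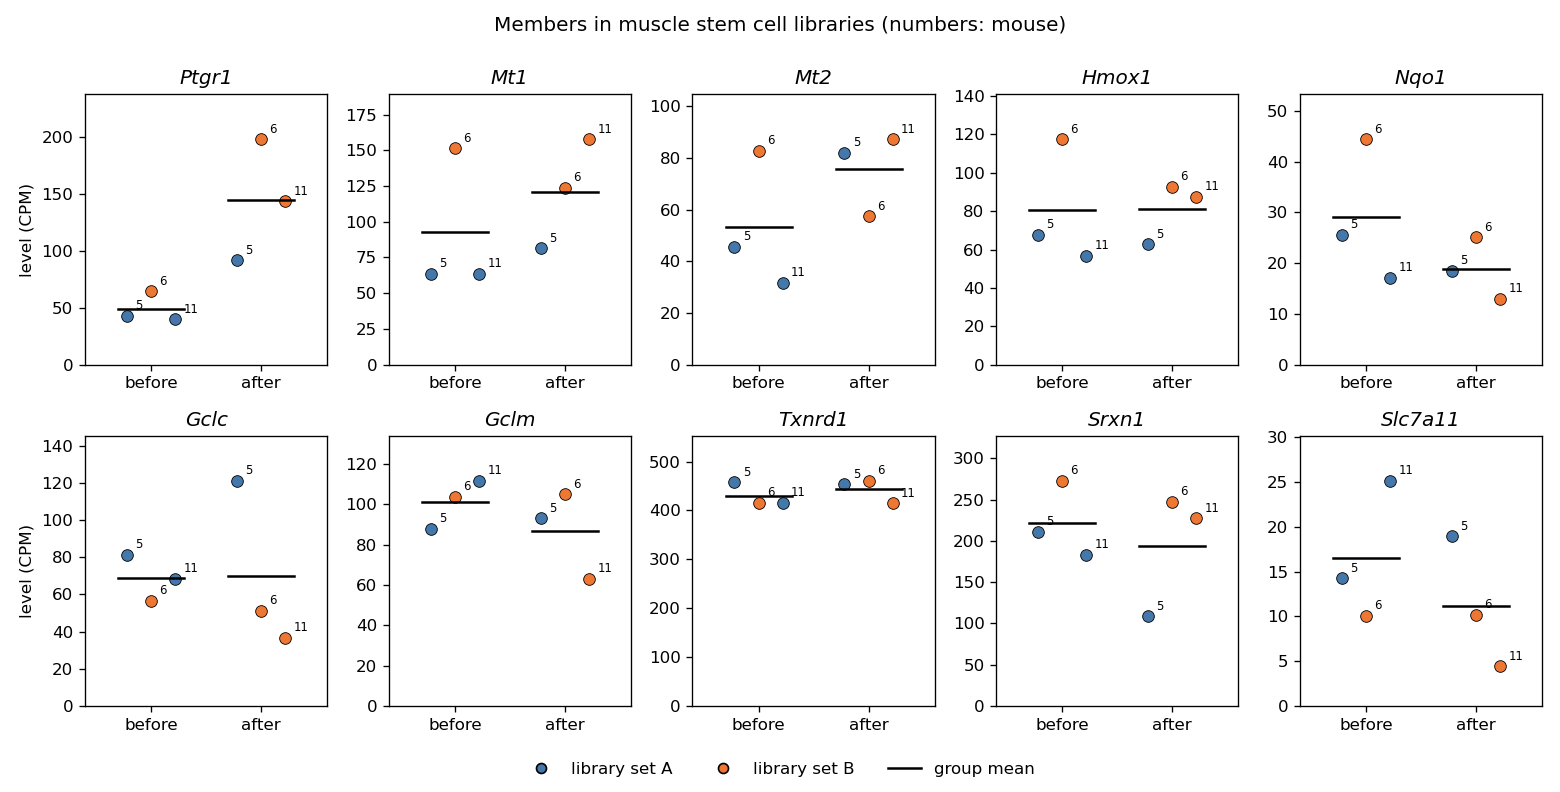
Levels of the 10 genes in CPM (y axis, from 0) in MuSC libraries before and after transplantation. Points are libraries labelled with the mouse number and coloured by library set, and horizontal lines are group means. Ptgr1 runs from 40.0 to 64.5 CPM before and from 91.6 to 198 CPM after, while in the other 9 genes the groups overlap.

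Mt1 and Mt2, the metallothioneins of most tissues, overlapped between the groups. Mt1 was at 63.6, 151 and 63.4 CPM before and 81.3, 124 and 158 CPM after in mice 5, 6 and 11, a log2 difference of 0.38 ± 0.44. The 3 highest libraries were before 6, after 6 and after 11, which make up set B, and the sets did not overlap (63.4 to 81.3 CPM in A, 124 to 158 CPM in B). In TPM the sets overlapped, with 372 TPM in after 5 and 361 TPM in after 6. Mt2 was at 45.7, 82.7 and 31.6 CPM before and 82.1, 57.4 and 87.2 CPM after, a difference of 0.50 ± 0.40. Both genes were higher after in mice 5 and 11 and lower in mouse 6. For Mt2 the value was 1.10 within set A and -0.20 within set B, and for Mt1 0.37 and -0.11, so the direction turned between the sets.

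Hmox1 encodes heme oxygenase 1, which breaks heme down to biliverdin, iron and carbon monoxide. It was at 67.5, 117 and 56.6 CPM before and 62.8, 92.5 and 87.5 CPM after in mice 5, 6 and 11, and the means (80.5 ± 32.4 and 80.9 ± 15.9 CPM) gave a log2 difference of 0.01 ± 0.35. Its libraries too were divided by set in CPM, with 56.6 to 67.5 CPM in A and 87.5 to 117 CPM in B. In TPM the sets overlapped, with 70.3 TPM in before 5 and 58.3 TPM in after 11. Macrophages, which are rich in this enzyme, left little trace: Adgre1, Ptprc and C1qa were at 0 in all 6 MuSC libraries, and the 6 markers summed to at most 5.49 CPM. The 4 red blood cell markers summed to at most 0.255 CPM.

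Nqo1, which encodes a quinone reductase, was lower after in 3 of 3 mice. It stood at 25.6, 44.4 and 17.1 CPM before and 18.5, 25.1 and 12.9 CPM after in mice 5, 6 and 11, with overlapping groups and a log2 difference of -0.62 ± 0.44. Of all genes tested 10.3% were lower in all 3 mice. Without before 6, its highest library, the value was -0.18, and it was -0.20 within set A and -1.23 within set B.

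The genes of glutathione synthesis gave no common direction in MuSCs. Gclc and Gclm encode the catalytic and modifier subunits of glutamate-cysteine ligase, the first step of synthesis, and Slc7a11 encodes the cystine transporter xCT that supplies it. Gclc was at 81.3, 56.5 and 68.3 CPM before and 121, 51.2 and 36.7 CPM after in mice 5, 6 and 11. After 5 was thus the highest and after 11 the lowest of the 6, and the difference was 0.02 ± 0.46, with 0.71 within set A and -0.37 within set B. Without after 5 it was -0.66. Gclm was at 87.9, 104 and 112 CPM before and 93.1, 105 and 63.1 CPM after (-0.22 ± 0.28), with after 11 below the rest. On the TPM scale its means lay the other way, at 66.3 ± 6.64 TPM before and 69.2 ± 10.0 TPM after. Slc7a11 was at 14.3, 10.1 and 25.2 CPM before and 19.0, 10.2 and 4.44 CPM after (-0.56 ± 0.59). Before 11 was the highest and after 11 the lowest library, and the difference was -0.13 without before 11 and -0.18 without after 11. In mice 5 and 6 the fold after over before was 1.33 and 1.01.

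Txnrd1 and Srxn1 act on protein thiols. Txnrd1, the cytosolic thioredoxin reductase, was at 415 to 458 CPM before and 415 to 461 CPM after (0.05 ± 0.24), and at 130 to 231 TPM over the same libraries. Its TPM means lay the other way, at 188 ± 43.8 TPM before and 171 ± 52.9 TPM after. Srxn1, sulfiredoxin, which repairs overoxidized peroxiredoxins, was at 211, 273 and 183 CPM before and 109, 247 and 227 CPM after in mice 5, 6 and 11. After 5 was the lowest of the 6, and the difference was -0.19 ± 0.37. On the TPM scale Srxn1 was lower after without overlap, at 121, 103 and 96.5 TPM before and 64.5, 94.2 and 86.4 TPM after. Its overlap thus depended on the unit. Within sets the difference was -0.85 (A) and -0.21 (B) on the log2 CPM scale.

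Across the 10 genes in MuSCs 6 differences were positive and 4 negative, with a median of 0.01, beside 51.4% positive and a median of 0.02 over all genes tested.

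**Figure D2:**
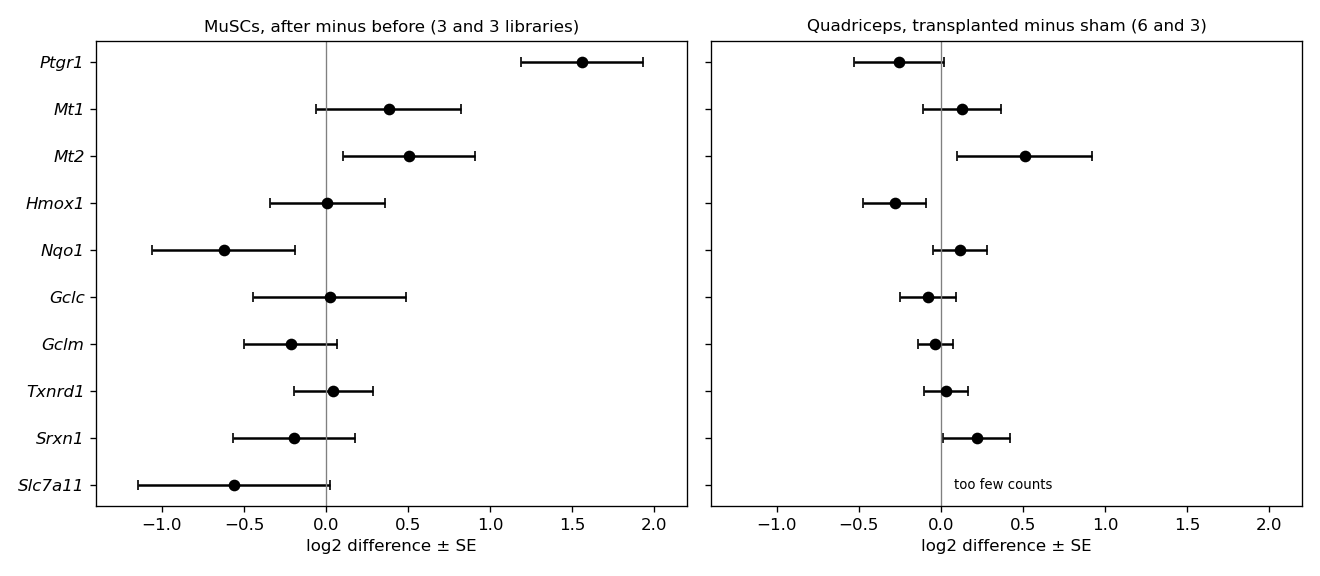
Log2 differences with standard errors (x axis) for each gene, in MuSCs (after minus before, 3 and 3 libraries) and in quadriceps muscle (transplanted minus sham, 6 and 3 libraries). Ptgr1 in MuSCs lies at 1.56 ± 0.37, and its value in muscle is -0.25 ± 0.27; Slc7a11 had too few counts in muscle.

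The sign of the set difference divided the genes by exon length, while its size did not follow length gene by gene. Mt2, Mt1, Nqo1, Hmox1, Ptgr1 and Srxn1, with 588 to 2820 exon bases, were higher in set B by 0.27 to 1.18 (log2 CPM). Gclc, Gclm, Txnrd1 and Slc7a11, with 3766 to 13922 exon bases, were lower by 0.04 to 1.29. Mt1, Hmox1, Srxn1, Gclc and Slc7a11 did not overlap between the sets in CPM, which is 5 of 10 beside 56.8% of all genes. This depended on the unit. On the TPM scale the sets overlapped for Mt1, Hmox1 and Srxn1. They did not for Gclc, Slc7a11 and Txnrd1, the last at 199 to 231 TPM in A and 130 to 151 TPM in B. Over the 10 genes, set difference and log10 exon length correlated at r = -0.73 (Pearson), and over the 13357 genes with a length at -0.42. These points share the same 6 libraries. Most libraries after lie in set B and most before in set A. The set difference was not adjusted for this, so it also holds part of the difference between after and before. The part of length in the before and after values was not tested.

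**Figure D3:**
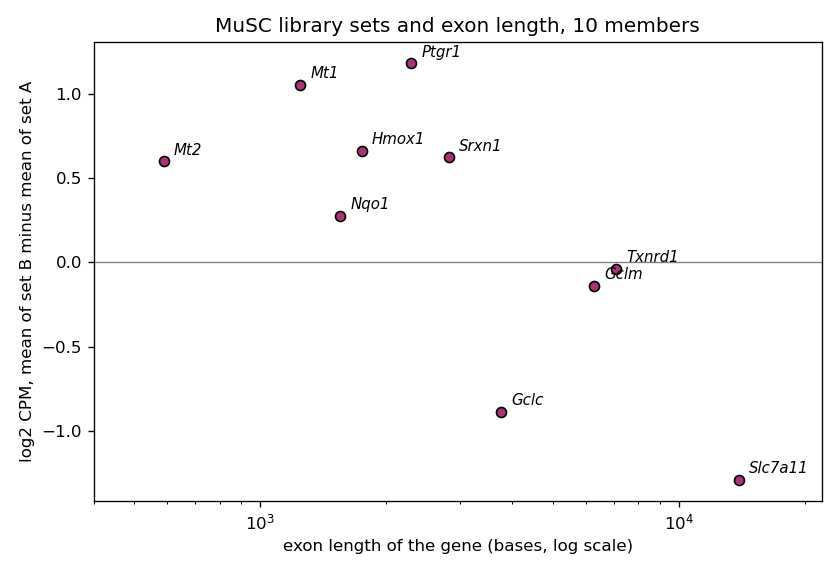
Difference between MuSC library sets (mean log2 CPM of set B minus that of set A, not adjusted for before and after, y axis) against exon length in bases (log x axis), 1 point per gene. The genes of 588 to 2820 bases lie above 0, and Slc7a11, the longest, lies lowest at -1.29.

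Quadriceps muscle held far less of these transcripts, apart from Nqo1. MuSC and muscle tables were normalized separately, so the TPM levels are set side by side without a test. Before transplantation MuSCs averaged, in falling order, 334 ± 103 TPM for Mt1, 223 ± 64.9 for Mt2, 188 ± 43.8 for Txnrd1, 107 ± 12.6 for Srxn1, 70.0 ± 12.9 for Hmox1 and 66.3 ± 6.64 for Gclm (SD, n = 3). Ptgr1 followed at 28.1 ± 1.79 TPM, Gclc at 26.9 ± 9.45, Nqo1 at 25.4 ± 7.25 and Slc7a11 at 2.38 ± 1.41. Ranges of neighbours overlapped between Mt1 and Mt2, Mt2 and Txnrd1, Hmox1 and Gclm, Ptgr1 and Gclc, and Gclc and Nqo1.

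In sham muscle Txnrd1 came first, at 34.9 ± 2.01 TPM, then Nqo1 at 15.1 ± 4.53, Mt1 at 14.1 ± 2.06, Srxn1 at 10.8 ± 1.74 and Gclm at 9.65 ± 1.29. Gclc stood at 4.01 ± 0.668 TPM, Mt2 at 3.93 ± 1.11, Hmox1 at 3.88 ± 0.732, Ptgr1 at 0.817 ± 0.362 and Slc7a11 at 0.0533 ± 0.00577. Here neighbours from Nqo1 down to Gclm overlapped, as did Gclc with Mt2 and Mt2 with Hmox1. The MuSC level was 56.7 times the sham level for Mt2, 34.4 times for Ptgr1 and 23.6 times for Mt1. For Slc7a11 no ratio is given, since its sham level rests on 19 counts. Nqo1 differed least, at 1.68 times, and moved from rank 9 in MuSCs to rank 2 in muscle. Its ranges overlapped, at 17.5 to 31.7 TPM in MuSCs before and 10.0 to 18.7 TPM in sham muscle. In bulk tissue fewer cells of a type and less RNA per cell cannot be told apart.

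**Figure D4:**
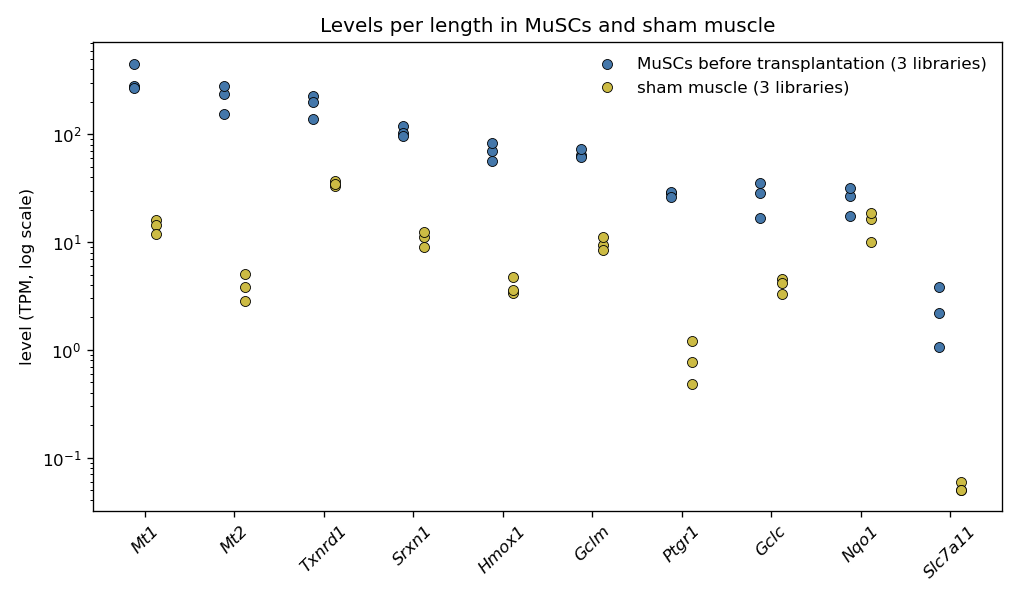
Levels per length in TPM (log y axis) of the 10 genes in 3 MuSC libraries before transplantation and 3 sham muscle libraries, ordered by the MuSC mean. Nqo1 lies closest in the 2 kinds of sample (25.4 and 15.1 TPM), and Mt2 lies far apart (223 and 3.93 TPM).

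In muscle the question was whether quadriceps of transplanted mice differed from that of sham-operated mice. The metallothioneins overlapped between the groups, with transplanted 6 on top. Mt2 was at 0.750, 0.960 and 0.530 CPM in shams 3, 12 and 192. Transplanted libraries gave 0.605, 0.966, 2.72, 1.16, 0.759 and 1.08 CPM in mice 4, 5, 6, 11, 14 and 94. The means were 1.21 ± 0.764 (n = 6) and 0.747 ± 0.215 CPM (n = 3), a log2 difference of 0.51 ± 0.41, which was 0.25 without mouse 6. These values rest on 10 to 59 counts per library. Mt1 was at 3.96, 3.36 and 2.76 CPM in shams and ran from 2.42 to 6.45 CPM in transplanted muscle with a median of 4.02 CPM (0.13 ± 0.24). It was 0.63 within the table that has 1 sham and -0.19 within the table that has 2.

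Srxn1 showed the same library on top. It was at 25.2, 22.4 and 17.8 CPM in shams 3, 12 and 192, and at 16.7, 29.0, 46.0, 30.2, 22.9 and 23.3 CPM in mice 4, 5, 6, 11, 14 and 94 (0.22 ± 0.20). The sign turned with 1 library, since the difference was -0.04 without sham 12, and it was -0.04 within the table that has 2 shams and 0.65 within the table that has 1. Without transplanted 6 it was 0.11. Transplanted 6 was the highest of 9 muscle libraries for Mt1, Mt2, Hmox1, Txnrd1 and Srxn1, which is 5 of 10 genes, where it was the highest for 9.17% of 14375 genes tested. Its Txnrd1 was 109 CPM against 70.2 to 88.3 CPM in the other 8. Hmox1 there was 5.20 CPM against 2.37 to 4.61 CPM. Transplanted 6 also had the highest summed adipocyte markers of the transplanted libraries, 403 CPM against 101 to 172 CPM, and sham 12 had 759 CPM. The part of fat in these values was not tested.

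Mean Hmox1 was 3.56 ± 0.982 CPM with transplantation and 4.06 ± 0.476 CPM with sham surgery (-0.28 ± 0.19), and it was negative whichever library was left out (-0.38 to -0.20). Shams were at 3.80, 4.61 and 3.77 CPM, inside the transplanted range. Ptgr1 was scarce in muscle, with 15 to 38 counts per library. Its levels were 0.857, 1.82 and 1.27 CPM in shams 3, 12 and 192 and 0.806 to 1.58 CPM in transplanted muscle with a median of 1.06 CPM (-0.25 ± 0.27). The sign is opposite to that in MuSCs, and the difference between both effects was not tested.

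Nqo1, Gclc, Gclm and Txnrd1 overlapped between the groups. The lowest Gclm value was 11.4 CPM in transplanted 5, below the shams at 13.6 to 15.2 CPM, and Txnrd1 reached farther to both sides in transplanted muscle than in shams (78.1 to 83.9 CPM). Nqo1 averaged 17.5 ± 2.95 and 15.6 ± 4.12 CPM (0.12 ± 0.17), Gclc 9.40 ± 1.88 and 10.4 ± 2.53 CPM (-0.08 ± 0.17), Gclm 13.9 ± 1.34 and 14.3 ± 0.808 CPM (-0.03 ± 0.11) and Txnrd1 82.8 ± 14.3 and 80.4 ± 3.03 CPM (0.03 ± 0.13). Slc7a11 did not pass the filter on low counts in muscle. It had 7, 5 and 7 counts in shams 3, 12 and 192 and 1 to 5 in the transplanted libraries, 19 counts over each group. In CPM it ran from 0.240 to 0.375 in shams and from 0.0538 to 0.233 in transplanted muscle, without overlap but at so few counts that no fold is given.

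Of the 9 genes that passed the filter 5 differences were positive and 4 negative, with a median of 0.03, beside 49.9% positive and a median of 0.00 over all 14375 genes. None of the 9 had groups without overlap, beside 2.11% of all genes (1.15% higher and 0.96% lower). The edgeR fit called 0 of 14375 genes (0%) at an adjusted p under 0.05, and 1018 (7.08%) had an unadjusted p under 0.05. By DESeq2 6 genes were called (0.0417%), none of the 9.

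**Figure D5:**
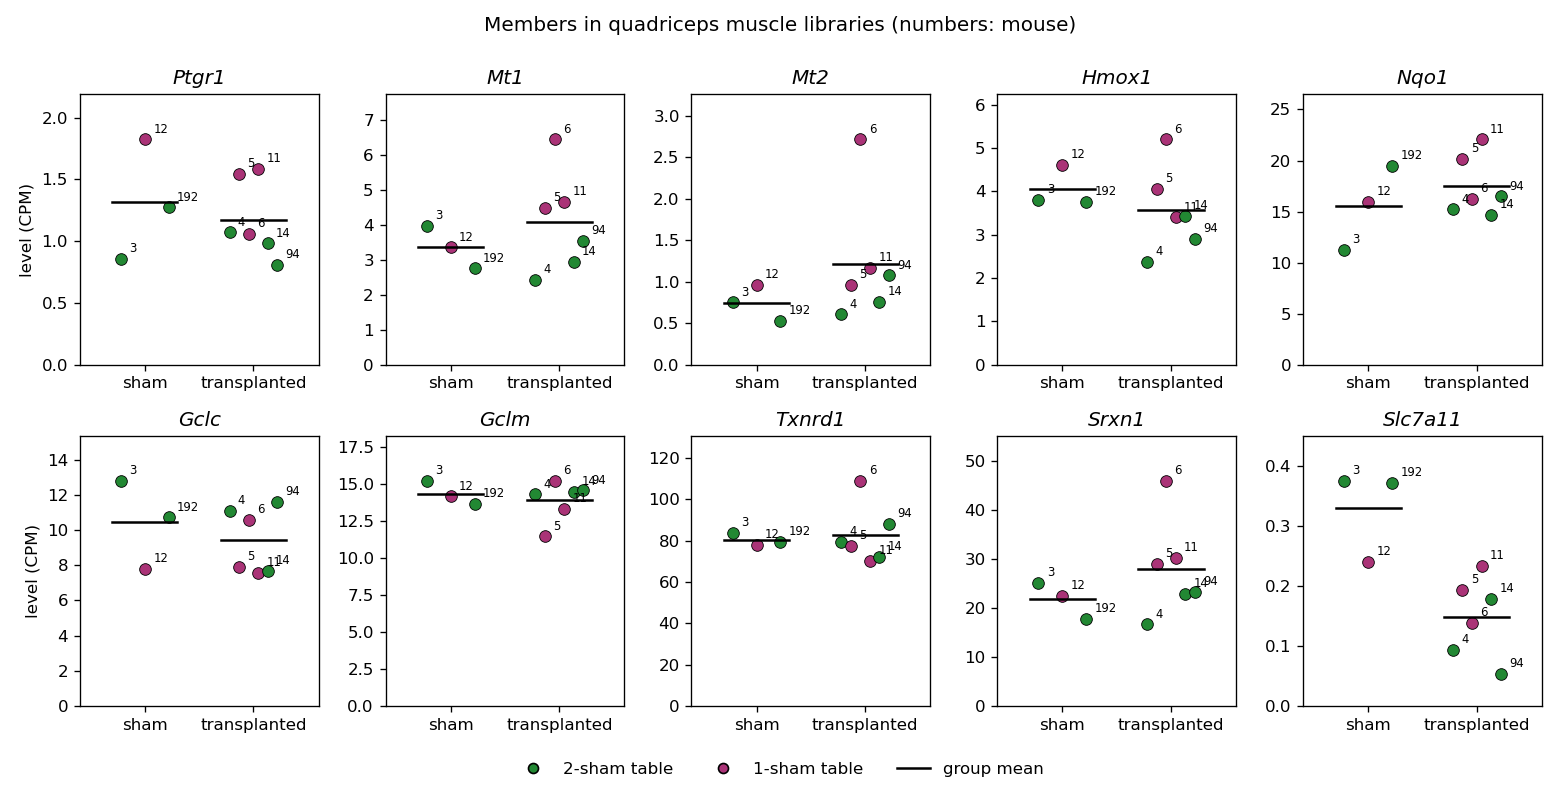
Levels of the 10 genes in CPM (y axis, from 0) in sham and transplanted quadriceps libraries. Points are libraries labelled with the mouse number and coloured by deposited table, and horizontal lines are group means. Transplanted 6 is the highest point for Mt1, Mt2, Hmox1, Txnrd1 and Srxn1.

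Several of the 10 genes varied together among muscle libraries. On log2 CPM centred within each table, Mt1 and Srxn1 correlated at r = 0.96 (Pearson) and rho = 0.95 (Spearman) over 9 libraries. Mt2 and Srxn1 gave r = 0.87 and rho = 0.88, and Mt1 and Mt2 r = 0.80 and rho = 0.77. Ptgr1 went against them, with r = -0.92 and rho = -0.85 for Mt2. Without the 2 libraries farthest on the first gene, r was 0.91, 0.82, 0.60 and -0.80 in that order, over 7 libraries. These 4 pairs were chosen from all pairs of the 9 genes after their values were seen, and r is given as a description, without a p.

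Genes most like 4 of the members were sought among all genes with a mean of at least 5 CPM. Over the 9 muscle libraries the nearest to Mt2 was Mafg (r = 0.96), a small MAF protein that pairs with NRF2 and with BACH1, followed by Cyyr1 and Dusp8 (r = 0.95 each). For Srxn1 they were Gzf1 (0.99), Akap1 (0.97) and Phlda3 (0.96), and for Hmox1 Ptpn14 (0.94), Miga2 (0.94) and Wrnip1 (0.93). Over the 6 MuSC libraries, which fall into 2 sets, Ptgr1 was nearest to Pkmyt1 (0.98), Lpcat3 (0.98) and Kif18b (0.97). There Mt2 was nearest to Dyrk3 (0.99), Cables2 (0.98) and Fbxo46 (0.98), Hmox1 to Ggact (0.99), Tuba4a (0.99) and Hsf2bp (0.98), and Srxn1 to Serpinf1, Tmem129 and Amacr (0.99 each). With so few libraries, high values are found for some gene by the search alone.

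The wider pathway was read from 9 lists of 81 other genes, of which 73 passed the filter in MuSCs and 77 in muscle. In MuSCs 47 stood higher after and 26 lower (64.4% higher, median 0.28), beside 51.4% of all genes, and edgeR called 0 of them over all genes. Unadjusted, 4 (5.48%) were under 0.05, beside 2.26% of all genes. The count depended on the mouse, with 28 of 73 higher in mouse 5, 44 in mouse 6 and 50 in mouse 11. Without after 11 there were 42 higher, and the median was 0.06. Regulators of NRF2 were higher in 5 of 9 (median 0.05), glutathione genes in 7 of 11 (0.34), thioredoxins and peroxiredoxins in 7 of 8 (0.36) and NADPH supply in 4 of 6 (0.46). Dismutases and catalase were higher in 3 of 4 (0.35), detoxifying enzymes in 8 of 10 (0.31), heme and iron genes in 5 of 8 (0.28), zinc and copper genes in 2 of 8 (-0.38) and prostaglandin and leukotriene genes in 6 of 9 (0.32). Of the thioredoxins and peroxiredoxins none of 8 was higher in mouse 5, where both libraries belong to set A, and 7 were in mouse 6 and 7 in mouse 11, with a median of 0.17 without after 11. Glutathione genes were higher in 2 of 11 in mouse 5 and in 11 of 11 in mouse 11, whose libraries belong to different sets, and their median was -0.00621 without after 11.

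Among the regulators in MuSCs, Nfe2l2 ran from 97.9 to 180 CPM after and from 153 to 175 CPM before (-0.29 ± 0.30), and turned to 0.14 within set A. Keap1 averaged 47.0 ± 17.5 and 32.6 ± 8.40 CPM (0.53 ± 0.36), the repressor Bach1 31.5 ± 18.5 and 47.7 ± 12.7 CPM (-0.60 ± 0.50) and the zinc sensor Mtf1 25.3 ± 5.03 and 29.4 ± 3.70 CPM (-0.22 ± 0.28). Keap1 was higher after in 3 of 3 mice, and Bach1 and Mtf1 were lower in 3 of 3, where 10.8% and 10.3% of all genes went the same way. Mice 5 and 6 were close to no change for Keap1 (1.01-fold and 1.05-fold, against 2.65-fold in mouse 11) and for Bach1 (0.955-fold each, against 0.222-fold). Without after 11, Keap1 was at 0.20 and Bach1 at -0.22. None of them passed (adjusted p = 0.873 each by edgeR).

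Ptges, which encodes prostaglandin E synthase and so acts in the same eicosanoid chemistry as Ptgr1, stood near the top of the lists. It was at 14.1, 38.9 and 22.1 CPM before and 131, 50.6 and 176 CPM after in mice 5, 6 and 11. The groups did not overlap, and the log2 difference was 2.25 ± 0.57. It did not pass (adjusted p = 0.873 by edgeR and 0.0798 by DESeq2). The rise was 9.24-fold in mouse 5, 1.30-fold in mouse 6 and 7.95-fold in mouse 11. Within set A, with 1 library after, the difference was 2.86, and within set B, with 1 library before, it was 1.54. In each of these fits the lone library is assumed to vary like those of the other group. Of the same list, Ptgr2 went the other way, at 50.3 ± 7.72 CPM after and 77.9 ± 11.9 CPM before (-0.63 ± 0.26). It was lower in 3 of 3 mice and without overlap, where 10.3% and 2.98% of all genes were. It did not pass either (adjusted p = 0.873 by edgeR), and 6 of the 9 genes of that list stood higher. Sod3, extracellular superoxide dismutase, had 340 counts after and 20 before (4.17 ± 1.66). Its levels after were 14.4, 2.55 and 0.175 CPM in mice 5, 6 and 11, and the difference was 2.10 without after 5. Prdx5, a peroxiredoxin, was at 1004 CPM in after 11 and 149 to 277 CPM in the other 5 MuSC libraries (1.40 ± 0.69, and 0.24 without after 11).

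At the lower end in MuSCs were the zinc transporter Slc30a4 (87.4 ± 67.1 CPM after and 177 ± 37.5 CPM before, -1.02 ± 0.64), the copper pump Atp7a (11.5 ± 8.55 and 20.2 ± 8.03 CPM, -0.82 ± 0.60) and the iron regulator Ireb2 (48.3 ± 46.1 and 80.5 ± 31.1 CPM, -0.74 ± 0.71). Each had its lowest level in after 11, at 21.2, 4.79 and 12.8 CPM. Without after 5, Slc30a4, Atp7a and Ireb2 moved to -1.75, -1.62 and -1.87, and without after 11 to -0.56, -0.45 and -0.29.

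In muscle 40 pathway genes stood higher in transplanted mice and 37 lower (median 0.01), and edgeR called 0, with 5 at an unadjusted p under 0.05, where 7.08% of all genes were. Of all genes 49.9% stood higher. The counts of higher genes were 7 of 9 regulators (median 0.12), 8 of 13 glutathione genes (0.07), 7 of 9 thioredoxins and peroxiredoxins (0.13) and 0 of 6 NADPH supply genes (-0.42). They were 2 of 4 dismutases and catalase (-0.03), 4 of 10 detoxifying enzymes (-0.09), 4 of 8 heme and iron genes (0.03), 4 of 8 zinc and copper genes (0.01) and 4 of 10 prostaglandin and leukotriene genes (-0.04). Nfe2l2, Keap1, Bach1 and Mtf1 differed by -0.05 ± 0.11, 0.12 ± 0.08, 0.00 ± 0.14 and 0.04 ± 0.11.

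The NADPH supply genes had the list median farthest from 0 in muscle. Transketolase, Tkt, was at 58.7, 84.9 and 8.06 CPM in shams 3, 12 and 192 and at 9.17 to 26.8 CPM in transplanted muscle (-1.48 ± 0.48, adjusted p = 0.686 by edgeR). Glucose-6-phosphate dehydrogenase, G6pdx, was at 5.95, 11.4 and 3.29 CPM in the same shams and 2.79 to 5.66 CPM in transplanted muscle (-0.83 ± 0.26). The microsomal glutathione transferase Mgst1 was at 17.3, 29.8 and 5.67 CPM and 4.19 to 18.3 CPM (-0.97 ± 0.33). Tkt, G6pdx and Mgst1 were all highest in sham 12 and lowest among shams in sham 192. The 5 adipocyte markers, all detected, had the same order, with 338, 759 and 121 CPM in shams 3, 12 and 192 and 101 to 403 CPM in transplanted muscle. The part of fat cells in these differences was not tested. Tkt passed in the table that has 1 sham alone (-2.14, adjusted p = 0.043 by edgeR, with values up to 1 over the alternatives), the lone sham being assumed to vary like the transplanted libraries.

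At the upper end in muscle stood the zinc transporter Slc39a14, at 9.16, 9.60 and 9.86 CPM in shams 3, 12 and 192 and 10.6 to 13.1 CPM in transplanted muscle, with no overlap (0.26 ± 0.10, adjusted p = 0.686 by edgeR). Maff, another small MAF protein, differed by 0.26 ± 0.30 and Prdx5 by 0.23 ± 0.13. Maff was at -0.00126 without sham 192, and Prdx5 was at 0.00189 without sham 12.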

How the data were processed

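Bulk RNA-seq of 15 libraries was used. The authors deposited 3 tables of 56953 genes that hold estimated counts beside TPM and FPKM, per the file headers. RNA was extracted with Trizol and prepared with a NEBNext Ultra kit, per the labels' protocols. The aligner, quantifier, annotation and use of strand are not given in the sources used. GRCm38 and mm10 are listed in the submitters' processing notes, but only 1446 of 52029 genes shared with GENCODE's GRCm38 annotation had the same start and end. No coordinates of the tables are therefore printed, and exon lengths were matched by gene identifier. Another 3 columns, counted as 1 library, matched no sample's labels and were not used. Reads shared by near-identical copies are uncertain.

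Counts were rounded and tested with edgeR 4.0.16 (quasi-likelihood, filterByExpr with a minimum count of 10, TMM scaling, Benjamini-Hochberg over all genes, threshold 0.05, 2-sided). MuSCs were compared without a covariate and muscle with the table as a term. The standard error is the log2 difference over the root of F. CPM uses the TMM-scaled library size, and log2 CPM a prior count of 2. DESeq2 1.42.0, its size factors, no filter, the mouse as a block, single tables, no table term, FPKM and leaving out each library were alternatives, and library sets were added after the data were seen. The code was tested on simulated data.

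Mouse numbers pair the MuSC libraries because the labels call the transplant autologous. Deviations from group means correlated at 0.30, 0.36 and -0.40 for mice 5, 6 and 11. Between different mice they ran from -0.68 (after 5 with before 6) to 0.55 (after 11 with before 6), with 0.49 for after 5 with before 11. These values do not set the own pairs apart, so the folds per mouse rest on the labels alone. Libraries of 1 group always differed beyond sampling noise (chi-square over its degrees of freedom at least 16.7). Libraries of a group carry different mouse numbers, so they were taken as separate animals. Named pathway genes were Nfe2l2, Keap1, Bach1, Mtf1, any gene past the threshold, and the 3 highest and 3 lowest differences per comparison. Ptgr2 was added after the values were seen. For likeness, Ptgr1, Mt2, Hmox1 and Srxn1 were each given the 3 genes of highest Pearson r. The muscle genes nearest to Ptgr1 are not reported here. The genes and lists were chosen with earlier results of these data known.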

Additional observations from a re-analysis of the deposited data

Results flagged for a closer look

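Mt2 in transplanted muscle of mouse 6 was at 2.72 CPM. The next highest of the 6 transplanted libraries was at 1.16 CPM and the lowest at 0.605 CPM, so the gap was 0.735 of the range, above the limit of 0.625. It was the 1 value so far from its group among 20 genes checked this way, and about 1 in 20 such groups is expected by chance.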

How the results depend on the processing

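No member was called under any alternative. Counts of genes called, 0 in both comparisons, were 16 (MuSCs) and 6 (muscle) with DESeq2, 43 in set A alone, 12 in muscle without the filter, 1 in the table with 2 shams and 41 in that with 1, and 0 to 4 in muscle when 1 library was left out (4 without sham 192, 2 without transplanted 94). Pathway genes called were 1 in set A alone (Ptges) and 1 in the table with 1 sham alone (Tkt), and 0 otherwise. The median of the 10 genes in MuSCs was -0.26 in set B alone. With the mouse as a replicate block the count of MuSC genes called was 0, Ptgr1 stood at 1.52 and no call changed. Named pathway genes changed sign as follows. In set A alone Nfe2l2 was at 0.14, Prdx5 at -0.00361 and Ireb2 at 0.0815. In muscle, Bach1 (0.00114) was at -0.00512 with DESeq2, -0.00519 with its size factors, -0.0601 without the table term and -0.069 in the table with 2 shams, and at -0.0642 to 0.0497 with 1 library left out. In that table Mtf1 was at -0.000547 and Prdx5 at -0.00322. Leaving out 1 library gave -0.17 to 0.0754 for Nfe2l2, -0.0337 to 0.15 for Mtf1 and -0.00126 to 0.59 for Maff. FPKM in place of TPM moved no ratio of levels by more than the spread. Of the alternative values for single members 258 moved by less than the spread between libraries and 7 by more. Members near 0 still changed sign. In MuSCs this was in 7 of 13 alternatives for Hmox1 and 5 of 13 for Gclc. In muscle it was in 4 of 15 for Txnrd1 and 3 of 15 for Gclc, and in at most 2 for any other member in either comparison. The TPM scale was not among these alternatives. On it the group means lay the other way for Hmox1, Gclc, Gclm and Txnrd1 in MuSCs. The same held for Mt1, Nqo1, Gclm and Txnrd1 in muscle, where TPM means hold no table term. At these depths differences of Mt2, Ptgr1 and Slc7a11 in muscle rest on few counts, and counting error alone is wide there.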
